A study of Mus musculus with 42 samples.

Results

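Metallothionein and zinc transport genes were followed through 120 h of embryoid body formation. The set held 5 genes, and all 5 were among the 14296 genes in the deposited values. It comprised the metallothioneins Mt1 and Mt2, the zinc exporter Slc30a1 (ZnT1), the metal-sensing transcription factor Mtf1 and the zinc importer Slc39a10 (ZIP10). The genes were chosen by their values in these libraries: Mt1 rose sharply at 6 h and Slc30a1 at 108 h. The changes from 0 h to 6 h and from 102 h to 108 h are therefore given as a description, with no test. W9.5 mouse embryonic stem cells, of strain 129X1/SvJ, were taken at low passage and left to differentiate spontaneously after LIF, the cytokine that keeps them undifferentiated, was withdrawn. Poly-A RNA was sequenced at 21 time points, 6 h apart, with replicates A and B at each, 42 libraries in all. There was no other genotype or treatment and no parallel culture kept undifferentiated, so time and anything that changed with handling at a given harvest cannot be told apart. Replicates were labelled as biological duplicates of 1 cell line, and the p-values below measure the spread between such duplicates.

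Metallothioneins are small cysteine-rich proteins that bind zinc and copper in the cytosol. When free zinc rises, MTF-1 (the product of Mtf1) binds metal response elements and switches on the metallothionein genes and Slc30a1, whose product pumps zinc out across the plasma membrane. Metallothionein genes also respond to glucocorticoids and to oxidant stress. Slc39a10 works in the opposite direction and carries zinc into the cell, and its transcription is known to fall in some cells when zinc is plentiful.

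Levels are the deposited log2 CPM, read counts scaled to an effective library size on a log2 scale. That size was the counted reads times a normalization factor of 0.884 to 1.13. The libraries held 10120972 to 51652434 counted reads, with a median of 29692083. At that depth 3 reads corresponded to 0.0571 to 0.316 CPM. The member with the fewest reads in any library was Mtf1, with 187, and the fewest for Slc30a1 were 191, so no level below rests on a handful of reads. All 7 stem cell markers of a fixed list were present, and Pou5f1 was at 9.98 log2 CPM at 0 h and 8.62 at 120 h. It does not stand for the whole list, since some others fell further and partly returned. Klf4 began at 8.43 log2 CPM, was down to 3.18 by 48 h and ended the course on 5.94. Zfp42 began at 9.18, was down to 6.68 by 96 h and ended on 7.63. In these bulk samples fewer cells of a type and less RNA per cell cannot be told apart.

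Mt1 and Mt2 lie side by side on chromosome 8, on the forward strand, with 5513 bases between them (Mt1 chr8:94179082-94180327, Mt2 chr8:94172664-94173568, GRCm38). Both genes were at moderate levels in undifferentiated cells, were at their highest level at 6 h and were much lower again by 12 h. Mt1 read 6.25 log2 CPM in replicate A and 6.36 in replicate B at 0 h, 9.97 and 10.18 at 6 h, and 7.57 and 7.90 at 12 h. Mt2 read 5.65 and 5.82 at 0 h, 9.82 and 9.94 at 6 h, and 7.65 and 7.83 at 12 h. For both genes the 6 h duplicates lay more than 1 log2 unit above every other library of the course. The rise from 0 h to 6 h was 3.77 log2 units (13.6-fold) for Mt1 and 4.15 (17.7-fold) for Mt2. Of the 14296 genes, 70 rose by more than Mt1 over this step and 51 by more than Mt2. From 6 h to 12 h Mt1 fell by 2.34 and Mt2 fell by 2.14 on the log2 scale.

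After 12 h the metallothioneins settled at different heights relative to where they began. Mt1 lay between 6.05 and 7.68 log2 CPM in all 36 libraries from 18 h to 120 h, a range that includes its 0 h values. Mt2 lay between 6.11 and 8.06 in the same libraries, above its 0 h values in each of them. Expressed per kilobase of the principal transcript (549 bases for Mt1 and 511 for Mt2), Mt1 exceeded Mt2 by 0.49 log2 units in replicate A and 0.44 in replicate B at 0 h. At 6 h the excess was 0.04 and 0.13, and at 48 h Mt1 was the lower of the pair, at -0.69 and -0.88. The sign therefore turned between the undifferentiated cells and the second day, and from 54 h on the difference ranged from -0.58 to 0.24. The difference between the levels is a description, since the 0 h and 6 h libraries chose the set. Mt1 and Mt2 are close in sequence, and the sources used here do not say how reads that fit both genes were counted.

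**Figure D1:**
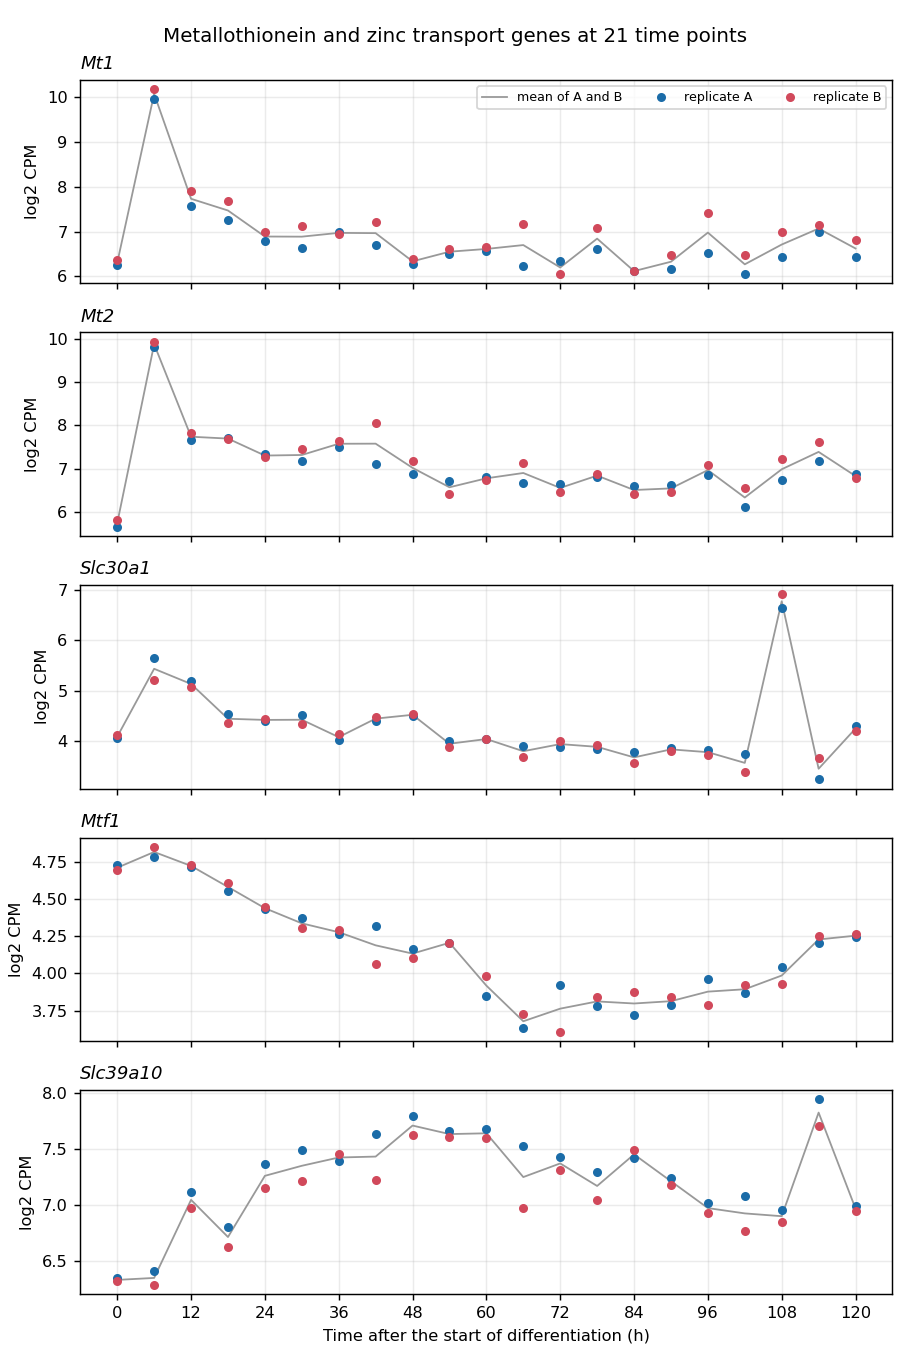
Levels (log2 CPM) of the 5 genes against time after the start of differentiation (h). Points are the libraries of replicates A and B and the grey line is their mean. Mt1 and Mt2 stand highest at 6 h, at 10.07 and 9.88, whereas Slc30a1 has its highest mean at 108 h, at 6.78, and its next highest at 6 h, at 5.44.

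**Figure D2:**
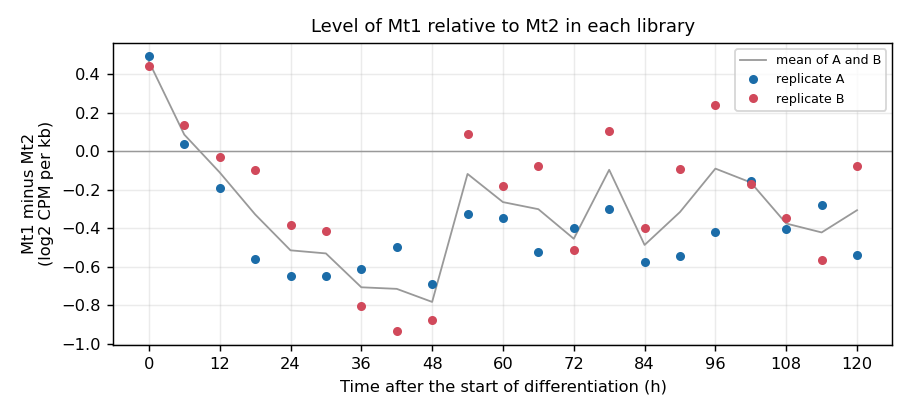
Level of Mt1 minus level of Mt2 (log2 CPM per kilobase of transcript) against time (h), with 1 point for each library and the mean of the duplicates as a line. The difference is above 0 at 0 h and is at its lowest mean, -0.78, at 48 h.

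Sequences before the start sites of the genes that moved at the chosen steps are shown because these genes are known targets of MTF-1. They are the 250 bases before the RefSeq start (GRCm38.p6), read 5′ to 3′ on the strand of the gene. Capitals mark the core of the metal response element, searched as TGCACNC and TGCGCNC on both strands, and a match on the opposite strand shows as its reverse complement. The Mt1 window is chr8:94178839-94179088, the Mt2 window chr8:94172368-94172617 and the Slc30a1 window chr1:191906531-191906780.
Mt1: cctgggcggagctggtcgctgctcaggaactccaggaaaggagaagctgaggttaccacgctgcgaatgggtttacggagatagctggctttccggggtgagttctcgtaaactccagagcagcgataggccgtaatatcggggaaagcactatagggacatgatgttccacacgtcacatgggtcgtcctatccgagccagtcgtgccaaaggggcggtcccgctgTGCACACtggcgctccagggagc
Mt2: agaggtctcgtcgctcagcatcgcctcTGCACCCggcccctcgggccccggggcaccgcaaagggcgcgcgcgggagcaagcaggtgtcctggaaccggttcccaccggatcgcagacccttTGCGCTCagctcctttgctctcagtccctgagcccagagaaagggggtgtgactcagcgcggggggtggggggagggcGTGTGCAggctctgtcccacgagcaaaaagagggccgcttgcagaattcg
Slc30a1: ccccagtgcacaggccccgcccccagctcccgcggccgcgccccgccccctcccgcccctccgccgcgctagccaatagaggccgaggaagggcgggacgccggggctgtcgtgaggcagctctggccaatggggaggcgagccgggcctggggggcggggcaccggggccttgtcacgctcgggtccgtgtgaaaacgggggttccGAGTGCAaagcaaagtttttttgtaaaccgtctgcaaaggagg
Counted over 300 bases, with the 50 bases after the start included, Mt1 held 3 matches, Mt2 held 4 and Slc30a1 held 2. The Mt1 matches were TGCACAC beginning 23 bases before the start, and TGCACTC and TGCGCTC at positions 2 and 20 counted from the start, all on the strand of the gene. Mt2 had TGCACCC and TGCGCTC on its own strand at 223 and 128 bases before the start, with TGCACAC and TGCGCAC on the opposite strand. Both matches of Slc30a1 were on the opposite strand. No match was found in the window of Mtf1 or in either RefSeq start of Slc39a10, which says only that these letters are not in those windows. Of 32851 promoters of this length, 25.7% held at least 1 match, 1.97% at least 3 and 0.517% at least 4. The RefSeq starts, 94179089 for Mt1 and 94172618 for Mt2, differ from those of the GENCODE genes given above, and sequence beyond the window was not searched. Whether any match is bound was not measured.

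Slc30a1 (chr1:191906767-191913247, forward strand) had separate rises at 6 h and at 108 h, of unequal size. At 0 h it read 4.06 log2 CPM in replicate A and 4.11 in replicate B, at 6 h 5.65 and 5.22, at 12 h 5.19 and 5.08, and at 18 h 4.53 and 4.35. The first rise was thus 1.35 log2 units (2.55-fold), smaller than that of the metallothioneins, and 857 of the 14296 genes rose by more. From 6 h to 12 h Slc30a1 fell by 0.30 log2 units, 0.46 in replicate A and 0.14 in replicate B, and stayed above its 0 h values. From 54 h to 102 h all 18 libraries lay between 3.39 and 4.04. At 108 h Slc30a1 read 6.64 and 6.92, against 3.74 and 3.39 at 102 h and 3.24 and 3.66 at 114 h. Both 108 h libraries were higher than every other library of the course, and the next time point held the lowest mean of all, 3.45. The rise from 102 h to 108 h was 3.21 log2 units (9.28-fold), 2.89 in replicate A and 3.53 in replicate B, and the fall to 114 h was by 3.33 log2 units. At 120 h the gene read 4.29 and 4.20, a rise of 0.80 from 114 h, and 628 genes rose by more over that step. Both values lay above its 0 h values and above the 54 h to 102 h range.

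At 108 h the metallothioneins rose in both replicates, by far less than Slc30a1. From 102 h to 108 h Mt1 went from 6.06 and 6.48 to 6.44 and 6.99 log2 CPM, and Mt2 from 6.11 and 6.55 to 6.74 and 7.23. The change was 0.44 for Mt1, which had changed by as much in other 6 h steps. For Mt2 it was 0.65, its largest rise after 12 h, which followed a change of -0.64 over the step before. Over this step 1778 genes rose by more than Mt1 and 941 by more than Mt2. With replicate A of 108 h left out, the change of Mt1 was 0.72, and with replicate B left out it was 0.17. Both genes were slightly higher again at 114 h, when Slc30a1 had fallen. Only 5 of the 14296 genes rose by more than Slc30a1 at this step, and they are named here after their values were seen: the immediate early transcription factor genes Fosl1 and Egr3, the chemokine receptor gene Ccr4, Apol8 and Gm20394. Fosl1 (3.50) and Egr3 (3.55) had also risen from 0 h to 6 h, by 5.11 and 5.35 log2 units, and Ccr4 by 2.39. Apol8 and Gm20394 changed by 0.16 and 0.02 over that earlier step. These 5 genes were low at 102 h, with means from -0.20 (Fosl1) to -4.78 (Gm20394) log2 CPM, against 3.56 for Slc30a1. From 108 h to 114 h 3 genes fell by more than Slc30a1.

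A transcript on the opposite strand overlaps the start of Slc30a1. The mean level of this antisense gene, 1700034H15Rik, went from -0.74 log2 CPM (102 h) to 0.86 (108 h) and back to -0.55 (114 h), so it moved in the same direction at a far lower level. The libraries were made with a strand-specific kit, but the strand setting of the counting is not given in the sources used here, and reads of this pair cannot be told apart with certainty. Markers of other cell types were summed beside it, and of 6 erythroid markers only Gata1 was in the files. The 6 fibroblast markers in the files (of 7 listed) summed to 29.1 and 33.3 CPM at 102 h, 34.8 and 35.3 at 108 h and 74.4 and 69.2 at 114 h. The 6 extraembryonic endoderm markers present (of 10) summed to 34.3 and 31.5 CPM at 102 h, 39.7 and 38.0 at 108 h and 45.3 and 36.9 at 114 h. From 102 h to 108 h some single markers at low levels changed by more than these sums, in both directions. Of the fibroblast markers, Postn changed by 2.05, Col1a2 by 0.71 and Col1a1 by 0.27 log2 units. Dcn changed by 0.13, Pdgfrb by -0.04 and Thy1 by -0.53. Of the endoderm markers, Sox7 changed by 0.87, Gata6 by 0.86 and Dab2 by 0.35. Apob changed by 0.06, Gata4 by -0.29 and Amn by -0.40. Among the stem cell markers, Klf4 changed by 0.95, Zfp42 by 0.77, Esrrb by 0.50, Sox2 by 0.41 and Nanog by 0.35. Dppa5a changed by 0.16 and Pou5f1 by -0.22. Over the same step the sum of the 7 stem cell markers rose from 1541 to 1738 CPM in replicate A. In replicate B it rose from 1674 to 2017 CPM. By 114 h the sums were 2013 CPM (replicate A) and 2535 CPM (replicate B). Around the first rise the fibroblast sum went from 46.6 and 49.3 CPM at 0 h to 15.7 and 15.1 at 6 h. At 0 h its highest markers were Pdgfrb (4.44 log2 CPM) and Thy1 (4.37), which changed by -2.73 and -1.07. Col1a1 changed by -1.40. Col1a2, Dcn and Postn, at -3.25, -5.58 and -4.78 log2 CPM at 0 h, changed by 0.38, 1.30 and -0.66. The endoderm sum went from 7.37 and 9.25 CPM at 0 h to 13.7 and 14.2 at 6 h. Mt1 went from 76.1 to 999.5 CPM in replicate A over that step. The part of these cells in either rise was not tested.

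**Figure D3:**
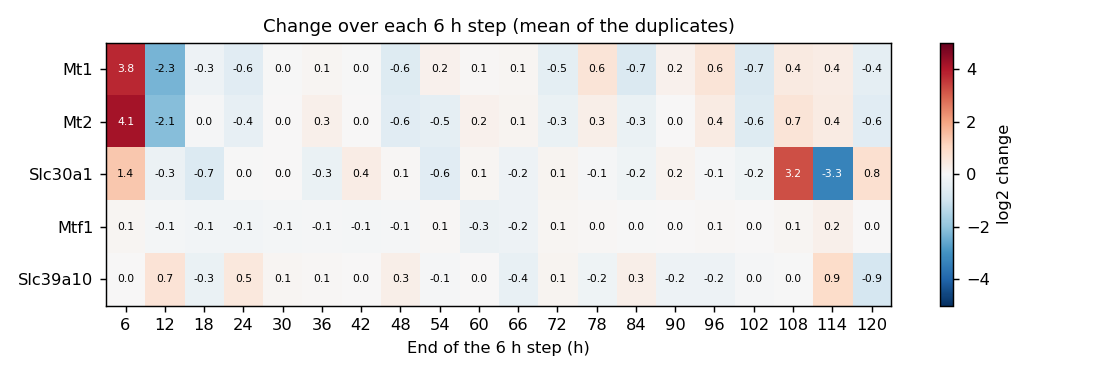
Log2 change of each gene over each of the 20 steps of 6 h, as the mean of the duplicates, with the end of the step on the x axis. Red is a rise and blue a fall. The strongest colours belong to Mt1 and Mt2 at 6 h and 12 h and to Slc30a1 at 108 h and 114 h, and Mtf1 stays pale throughout.

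Mtf1 (chr4:124802104-124849800, forward strand) encodes the sensor itself, and its messenger RNA took part in neither jump. It read 4.73 and 4.69 log2 CPM at 0 h and 4.78 and 4.85 at 6 h, a change of 0.11. At 102 h it read 3.87 and 3.92 and at 108 h 4.04 and 3.93, a change of 0.09. Its course was instead a slow decline and a partial return. The mean was 4.82 at 6 h and had dropped to 3.68 by 66 h, and by 120 h the level had come back to 4.24 and 4.26. The duplicates of Mtf1 were the closest of the set, with a pooled SD of 0.083 log2 units (21 time points, n = 2 each), against 0.29 for Mt1, 0.23 for Mt2, 0.14 for Slc30a1 and 0.15 for Slc39a10. The protein-coding gene 1110065P20Rik overlaps the end of Mtf1 on the opposite strand and changed by 0.02 from 102 h to 108 h.

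Slc39a10 (chr1:46807544-46892852, reverse strand), the importer, had its lowest values at 0 h and 6 h and higher ones from 24 h to 60 h. Its values were 6.34 and 6.32 log2 CPM in the 0 h libraries and 6.41 and 6.29 in the 6 h ones, which did not share the early jump. Values of 7.11 and 6.98 followed at 12 h and of 6.80 and 6.62 at 18 h. The 24 h pair stood at 7.37 and 7.15 and the 48 h pair at 7.79 and 7.63. After 60 h the mean moved up and down from step to step, and it was 6.90 at 108 h. Then it read 7.94 and 7.71 at 114 h, the highest mean of the course, and 6.99 and 6.95 at 120 h. This rise of 0.92 log2 units, followed by a fall of 0.86, came at the time point where Slc30a1 had its lowest mean. In replicate B, however, Slc30a1 was lower at 102 h than at 114 h, and the pattern is a description of 1 time point with 2 libraries.

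In the order of the 21 time points by mean level, most neighbours had duplicates whose ranges overlapped. The ranges were apart at 3 of the 20 gaps between neighbours in Mt1, 4 in Mt2, 7 in Slc30a1, 6 in Mtf1 and 3 in Slc39a10. Mt1 and Mt2 had their widest gap between 6 h and 12 h, of 2.34 and 2.14 log2 units. Slc30a1 had its own between 108 h and 6 h, of 1.34. In Slc39a10 the widest gap, 0.36, lay between 18 h and 6 h. Ranges also lay apart at small gaps, such as 0.06 between 30 h and 36 h in Mtf1. These orders are a description with no test, since the time points that chose the set are among them. Over the 24-hourly time points alone the means spanned 0.78 log2 units for Mt1, 1.57 for Mt2 and 0.74 for Slc30a1, against 3.95, 4.15 and 3.33 over all time points. For Mtf1 the 24-hourly span was 0.95 of 1.14, and for Slc39a10 it was 1.38 of 1.49.

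Away from the libraries that chose the set, the members were tested at 24 h against 12 h, in each later 24 h interval and between 24 h and 120 h. In limma, at the adjusted p threshold of 0.0001 that the study used, 0 of 5 members passed in any of these 6 comparisons. At an unadjusted p below 0.05, 15 of the 30 tests passed, 10 passed at an adjusted p below 0.05, and 0 passed at 0.0001 when limma was run with voom weights on the recovered reads. Over all genes and the same 6 comparisons, 42.2% of tests had an unadjusted p below 0.05 and 32.7% an adjusted p below 0.05, so the members' shares lie near the background. Among all genes, 2.33% rose and 0.853% fell between 12 h and 24 h, 5.27% and 3.7% between 24 h and 48 h, and 5.6% and 3.78% between 48 h and 72 h. The shares were 2.39% and 1% between 72 h and 96 h, 1.25% and 0.686% between 96 h and 120 h, and 17.4% and 11.2% between 24 h and 120 h. These comparisons share libraries with each other and are not independent. Among the time points that did not choose the set, 12 h held the highest mean of Mt1 (7.73 log2 CPM), Mt2 (7.74) and Slc30a1 (5.13). For these genes the comparison of 24 h with 12 h therefore includes the decline after the 6 h jump and is not free of the choice.

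Examples of the tested changes are given with their standard errors, and none of them passed. Slc30a1 at 24 h was lower than at 12 h by 0.72 log2 units (log2 change -0.72 ± 0.14, SE; adjusted p = 0.00058), and at 72 h lower than at 48 h (-0.58 ± 0.14; adjusted p = 0.00185). Mtf1 changed by -0.37 ± 0.10 between 48 h and 72 h (adjusted p = 0.00499). Mt1 changed by -0.84 ± 0.27 between 12 h and 24 h (adjusted p = 0.0264) and by 0.78 ± 0.27 between 72 h and 96 h (adjusted p = 0.0293). In the latter comparison the change of Mt1 was 0.19 in replicate A and 1.37 in replicate B, since the 96 h libraries stood at 6.53 and 7.42 log2 CPM. Slc39a10 changed by 0.45 ± 0.14 between 24 h and 48 h (adjusted p = 0.0192). Between 96 h and 120 h Slc30a1 changed by 0.47 ± 0.14 (adjusted p = 0.0217) and Mtf1 by 0.38 ± 0.10 (adjusted p = 0.0108). For Mt2 the smallest adjusted p was 0.0584, between 24 h and 120 h (-0.47 ± 0.21).

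Variation across the whole stretch from 12 h to 96 h was tested with the moderated F statistic of limma over its 15 time points. This stretch begins at 12 h, so for Mt1, Mt2 and Slc30a1 it also includes the decline after the 6 h jump. Mtf1 (adjusted p = 5.66e-10), Slc30a1 (9.07e-09), Mt2 (2.81e-06) and Slc39a10 (2.30e-05) varied, and Mt1 (0.000122) lay just outside the threshold. Of all genes, 58.8% varied by this test, which is the background for the 4 of 5 members. The call of Mt1 turned with single libraries: it passed without replicate A or B of 96 h, among others, with an adjusted p of 1.55e-05 without replicate A of 96 h. Slc39a10 lost its call without replicate B of 18 h (0.000281). With a term for the replicate letter in the fit Mt1 also passed (2.08e-07), as it did with median centring (9.28e-05), and without a trend Slc39a10 lay outside the threshold (0.000109). Replicate B was the higher of the duplicates for Mt1 at 18 of the 21 time points. For Slc39a10 replicate B was the higher at 2 of the 21. Across the 21 time points the difference between A and B in Mt1 went with that in Mt2 (Pearson r 0.51, Spearman rho 0.61), which is a description in which both genes share the library.

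The other genes of the zinc transporter families, 8 exporters (ZnT) and 11 importers (ZIP) present of 22 listed, show how the 5 members compared with their relatives. From 0 h to 6 h, 3 of these 19 genes rose and 3 fell in limma, with a median change of 0.18 against -0.05 for all 14296 genes. In that comparison 11.8% of all genes rose and 14.5% fell. The rises were in Slc39a14 (1.73 ± 0.13, SE; adjusted p = 3.33e-11), which imports zinc, iron and manganese, in Slc30a4 (1.13 ± 0.17; 2.77e-06), which loads zinc into vesicles, and in Slc39a6 (0.54 ± 0.10; 2.87e-05), the closest relative of Slc39a10. The falls were in Slc30a10 (-1.89 ± 0.36; 7.79e-05), a manganese exporter, in Slc39a11 (-1.10 ± 0.22; 9.44e-05) and in Slc39a13 (-0.89 ± 0.16; 3.74e-05). With each of the 4 libraries of 0 h and 6 h left out in turn, between 1 and 2 of the 19 genes passed. From 102 h to 108 h, when Slc30a1 jumped, 0 of the 19 passed in limma or with voom weights. In limma 5 had an unadjusted p below 0.05, and the median change was 0.11. The largest changes were in 2 ZnT genes, in opposite directions. Slc30a10, at a low level, changed by -1.70 (adjusted p = 0.00158 in limma) and Slc30a2 by 0.99 (0.0278). In that comparison 1.37% of all genes rose and 0.672% fell. Between 24 h and 120 h 7 of the 19 rose and 1 fell, and with any of the 4 libraries left out 3 to 4 passed. The third metallothionein gene in the files, Mt3, had mean levels of 2.79 log2 CPM at 0 h and 1.78 at 6 h (adjusted p = 0.00407) and changed by -0.75 from 102 h to 108 h, neither past the threshold, and fell by 2.51 log2 units between 24 h and 120 h (adjusted p = 2.71e-08).

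**Figure D4:**
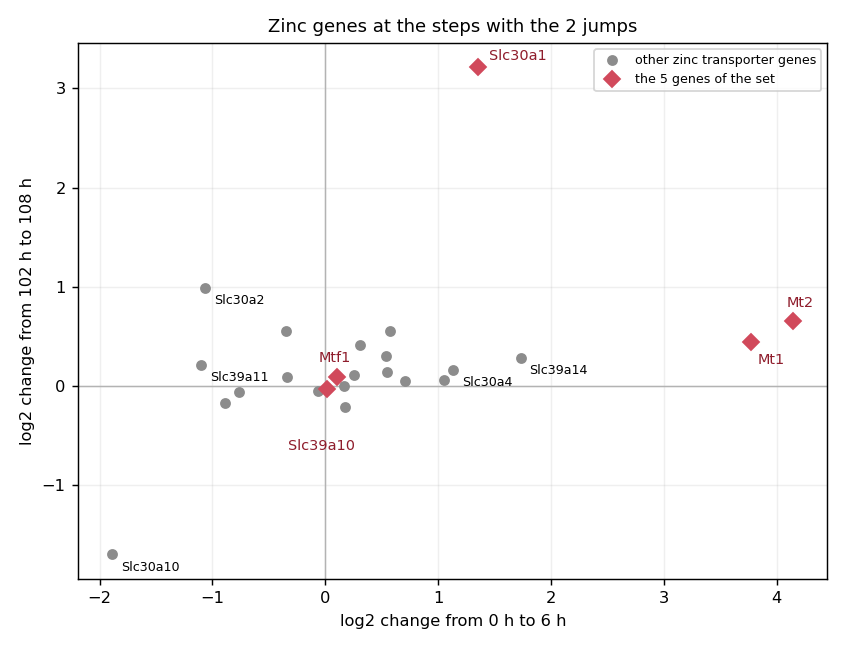
Log2 change from 0 h to 6 h (x axis) against that from 102 h to 108 h (y axis), for the 5 genes of the set (red diamonds) and the 19 other zinc transporter genes (grey circles). Mt1 and Mt2 lie far right, Slc30a1 lies at 1.35 and 3.21, and no grey circle reaches 2 on either axis.

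Genes of other metal and stress pathways give the setting of the first jump. Over all 14296 genes, 11.8% rose and 14.5% fell from 0 h to 6 h at the main threshold. Of 9 metal and oxidant stress genes 7 rose at this step and none fell, with a median of 0.92. Among them were Hmox1, which encodes haem oxygenase (2.60 ± 0.13; adjusted p = 7.46e-15), Gclm, a subunit of the enzyme that begins glutathione synthesis (1.42 ± 0.10; 4.36e-12), and Hspa1a, an inducible heat shock protein gene (1.40 ± 0.24; 1.49e-05). Hspa1a has a near-identical copy, Hspa1b, with which its reads may be shared. With replicate A of 6 h left out 3 of the 9 passed, and with replicate B of 0 h left out 4 passed. Among 10 copper genes 1 rose, Sco1, a copper chaperone of cytochrome c oxidase (0.75), and 3 fell, with the largest changes in the copper pump gene Atp7b (-2.42), in Slc31a2 (-1.03) and in the copper importer gene Slc31a1 (-0.74). With replicate A of 6 h left out, 2 of the copper genes passed. Of the 8 iron genes present, 3 fell and none rose: Steap3 (-1.75), the iron exporter gene Slc40a1 (-1.23) and Aco1 (-0.70). Of 8 glucocorticoid response genes only Per1 passed, and it fell (-1.08; adjusted p = 5.39e-06), a call that was lost with replicate A of 0 h or either replicate of 6 h left out. At an adjusted p below 0.05, 6 of the 8 passed, against 58% of all genes. Among those of the 6 short of the main threshold, Tsc22d3 fell (-1.08). The others rose, by 0.74 for Nr3c1, which encodes the glucocorticoid receptor, 0.54 for Sgk1, 0.43 for Klf9 and 0.36 for Fkbp5. The median change of that list was 0.40.

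From 102 h to 108 h the same lists held 2 genes past the threshold. Over all genes, 1.37% rose and 0.672% fell at this step. Hmox1 rose by 1.52 ± 0.13 log2 units (adjusted p = 5.68e-09), the only one of the 9 stress genes to pass, and the median of the 9 was 0.32. Of the 9, 6 had an unadjusted p below 0.05 and 5 an adjusted p below 0.05, against 26.5% and 15.5% of all genes. In the glucocorticoid list Sgk1 rose by 0.78 ± 0.13 (adjusted p = 7.36e-05) and lost this call with any of the 4 libraries left out, without a trend and with median centring. Of these 8 genes, 5 had an unadjusted p below 0.05 and 4 an adjusted p below 0.05. Among those 4, Per1 fell (-0.98), whereas Dusp1 (0.85), Sgk1 and Klf9 (0.64) rose. No copper gene passed in limma, 2 of the 10 had an unadjusted p below 0.05, and voom weights gave 0. No iron gene passed, 0 of 8 had an unadjusted p below 0.05, and voom weights gave 0. The lists were chosen with earlier results of these data known, so the counts describe these genes and are no independent evidence.

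The genes whose course was most like that of each member are given as a description over 21 time points, the libraries that chose the set included. Likeness is the lower of the Pearson correlations in replicate A and in replicate B, among the 11782 genes whose average level reached 1 log2 CPM. For Mt1 it was highest with Mt2 (0.91), then Wsb2 (0.87) and the clock gene Arntl (0.85), and by ranks those values were 0.82, 0.49 and 0.56. Mt2 was most like Mt1, then Tmem79 (0.86) and Cbfb (0.86), with rank values of 0.84 and 0.81. Slc30a1 was most like Akirin1 (0.77), Ddi2 (0.77) and Tgoln1 (0.76), with rank values of 0.79, 0.65 and 0.53. Its likeness to Mt1 was 0.39 and to Mt2 0.44, and Mt1 ranked 859 among the genes most like Slc30a1. Mtf1 was most like Ceacam1 (0.94), Cd38 (0.94) and the histone acetyltransferase gene Kat6b (0.94). Slc39a10 was most like Lin28b (0.86), which encodes an RNA-binding protein that blocks let-7 maturation, then Ptprg (0.85) and the amino acid transporter gene Slc38a1 (0.84). Its likeness to the other 4 members was below 0 in each case, from -0.51 with Mt1 to -0.25 with Mt2. Without 0 h, 6 h, 102 h and 108 h, the correlation of the mean courses over the other 17 time points was 0.87 between Mt1 and Mt2 (0.94 over 21), 0.52 between Mt1 and Slc30a1 (0.44) and 0.74 between Slc30a1 and Mtf1 (0.39). All genes in these correlations share the libraries and the order of the course.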

How the data were processed

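Poly-A RNA from 21 time points in duplicate was sequenced as paired-end, strand-specific libraries. According to the methods, adaptors and poor bases were removed (Trim Galore!), TopHat2 placed the reads on mm10, HTSeq gave counts for GENCODE vM2 genes, and the authors kept genes above 1 CPM in at least 2 samples before edgeR normalization and voom. The deposited values are log2 CPM, 1 file for each library. Versions of these tools and the strand setting of HTSeq are not given in the sources used here.

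Inverting the voom formula gave whole reads for all values (largest deviation 1.48e-08), and from these the depths. Symbols came from GENCODE vM21, in which 14177 of 14296 identifiers had a name. Time points were compared in limma 3.58.1 (R 4.3.3; lmFit and eBayes with a trend) on all 42 libraries and 14296 genes, with a factor of 21 time points and Benjamini-Hochberg adjustment within each comparison, at adjusted p < 0.0001. The fit was tested on simulated data. Members and gene lists were chosen with earlier results of these data known. Named genes are the members, up to 3 genes past the threshold from each list at 6 h and at 108 h, and the 3 genes most like each member. Likeness and promoter matches were computed in Python 3.11.15. Alternatives were a replicate term, voom weights, no trend, median centring, a filter on low values, a threshold of 0.05 and leaving out each library. Values after ± are standard errors from limma, and no interval from depth is given. No protein sequences were used here.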

Additional observations from a re-analysis of the deposited data

How the results depend on the processing

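None of the 5 members passed in the 6 comparisons they were tested in, under any alternative at that threshold. At adjusted p < 0.05, 2 members passed in each of the 5 comparisons up to 120 h against 96 h and 0 between 24 h and 120 h. At that threshold the zinc transporters that passed numbered 4 between 12 h and 24 h, 9 between 24 h and 48 h, 11 between 48 h and 72 h, 8 between 72 h and 96 h, 2 between 96 h and 120 h, 16 between 24 h and 120 h, 12 between 0 h and 6 h and 3 between 102 h and 108 h. The shares of all genes past it were, in the same order, 19%, 29.9%, 40.9%, 28.9%, 17.8%, 59.4%, 58% and 15.5%. Without a trend in eBayes, 0 instead of 1 passed between 12 h and 24 h, and 3 instead of 4 members varied from 12 h to 96 h. With single libraries left out, the zinc transporter counts ranged from 0 to 0 between 12 h and 24 h, from 0 to 2 between 48 h and 72 h, from 1 to 3 between 72 h and 96 h, from 0 to 1 between 96 h and 120 h, from 3 to 4 between 24 h and 120 h and from 1 to 2 between 0 h and 6 h, where fewer samples enter by construction. Members that varied numbered 3 to 5. The copper, iron, stress and glucocorticoid counts were run under the same alternatives, a choice made after seeing the data. Among the alternatives that kept all libraries, the sign of a member's change turned in 1 case, Slc39a10 between 96 h and 120 h, from -0.0048 to 0.019 on the log2 scale with median centring.

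The replicate letters were not taken as a pairing. Over 210 pairs of time points, the correlation of deviations from the time point mean averaged 0.08, with a lowest value of -0.47, and 99 exceeded 0.1. That average is over all genes. Among the members, replicate B was the higher at 18 of 21 time points for Mt1 and at 2 of 21 for Slc39a10. With the letter as a replicate block, 5 members varied from 12 h to 96 h instead of 4, 7 zinc transporters passed between 0 h and 6 h instead of 6, and 11 instead of 8 between 24 h and 120 h. Among the glucocorticoid genes 2 instead of 1 passed between 0 h and 6 h.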
